A study of Mus musculus with 31 samples.

Results

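The acute phase response is the change in plasma proteins that follows injury or infection. Cytokines such as interleukin-6 and interleukin-1 act on hepatocytes and on some cells outside the liver, where the factors STAT3, C/EBP and NF-kB raise the transcription of genes for amyloid, scavenger, inhibitor and complement proteins. Described here are 10 of these genes in mouse lung: the serum amyloid A genes Saa1, Saa2 and Saa3, the haemoglobin scavenger Hp, the orosomucoids Orm1 and Orm2, the copper oxidase Cp, the protease inhibitor Serpina3n, complement component C3 and the lipopolysaccharide binding protein Lbp. They were chosen by name among the 21727 genes named on the array, through the gene name in the scanner files or the current symbol of the listed transcript. All 10 genes had a probe (12 probes in all), and all 12 probes lay well above background on all 31 arrays, so all 10 were tested among 29440 features.

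The lungs came from female C57BL/6J mice aged 6 weeks that had been anaesthetised with xylazine and ketamine. Injections went into the tail vein. The treated mice were given oleic acid (200 µl, with a stated dose of 1.2 µl/g), a fatty acid that injures the endothelium of the lung, and the control mice were given 200 µl of physiological serum, called saline here. The times were 1, 1.5, 3, 4, 18 and 24 h. Each had 3 mice treated with oleic acid, against 2 saline controls, except that 1 h had 3 controls, and the labels name 1 mouse for each array. The study asked how the inflamed lung's transcripts change after acute injury.

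Of the 31 arrays, 29 were used (16 of oleic acid mice and 13 of saline mice). Replicate 3 of oleic acid at 1.5 h, and replicate 2 at 3 h, were left out because their signal did not follow the amount of spiked-in RNA as on the other arrays, where the slope lay between 0.94 and 1.06. Levels are log2 signals after subtraction of the 75th percentile of the array, so a level of 0 is that percentile, and they are compared between mice for 1 gene and never between genes. Arrays have no read depth, and the number of arrays limits the precision. On 5 of the arrays used, 72.2% to 82.4% of spots lay well above background, against 51.2% to 66.2% on the others. These 5 were replicate 1 of saline at 1 h, and replicate 2 of oleic acid at 1 h, of saline at 1.5 h and of both treatments at 18 h. The part of this share in the differences between mice was not tested. Lung epithelium markers (13 of 13 measured, among them the surfactant genes Sftpc, Sftpb, Sftpa1 and Sftpd) were well above background on every array, with a mean level between 6.53 and 7.02 in oleic acid mice and between 6.48 and 7.06 in saline mice. Liver markers (19 of 20 measured, among them Alb, Apoa1, Apoa2 and Apoc3) were also found, with at least 18 of 19 above background on each oleic acid array and at least 17 of 19 on each saline array. The mean level of the liver markers lay between 0.11 and 3.02 in oleic acid mice (median 1.22) and between -1.10 and 5.20 in saline mice (median 0.86). At 1 h the clock gene Dbp stood at 5.78, 6.00 and 5.67 in oleic acid mice, against 1.13, 1.73 and 5.91 in saline mice, so saline 1 h replicates 1 and 2 stand apart from the other 4 mice labelled 1 h. The 1 h differences of single genes, of lists and of the liver markers are therefore given with and without these 2 arrays. Without them only saline replicate 3 is left at 1 h, so such a difference sets the oleic acid mice against 1 control. This setting was chosen after seeing the data. The part of the time of day in the results was not tested. In whole lung, fewer cells of a type and less RNA per cell cannot be told apart.

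Probes of 4 genes of the serum amyloid A and orosomucoid families are shown, because what a 60-base probe matches decides which family member is measured. Coordinates are those of the scanner files, in mouse build mm9. The Saa1 probe lies at chr7:53996070-53996129 on the minus strand, the Saa3 probe at chr7:53970389-53970448 on the minus strand, and the Orm2 probe at chr4:63024979-63025038 on the plus strand. The Orm1 probe covers chr4:63006483-63007090 on the plus strand, a span of 608 bases for 60 bases of probe. No base is in capitals.
Saa1 probe: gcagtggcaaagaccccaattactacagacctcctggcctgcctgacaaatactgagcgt
Saa3 probe: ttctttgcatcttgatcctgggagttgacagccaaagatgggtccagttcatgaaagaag
Orm1 probe: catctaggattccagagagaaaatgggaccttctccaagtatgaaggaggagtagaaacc
Orm2 probe: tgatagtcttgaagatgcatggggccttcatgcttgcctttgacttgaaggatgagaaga
Aligned end to end, the Orm1 and Orm2 probes shared 35 of 65 positions (53.8%), and the Saa1 and Saa3 probes shared 26 of 64 (40.6%). Whether the Saa1 probe also binds Saa2 transcripts, or the reverse, was not tested.

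Saa1 and Saa2 moved together between mice and Saa3 did not move with them, so the 250 bases before the transcript start of these 3 neighbouring genes are shown, as listed by RefSeq for GRCm38.p6. Promoter entries were found for 7 of the 10 genes. Capitals mark matches to TTNNGNAA (a C/EBP motif) and to GGG and CC set 5 bases apart (an NF-kB motif), both searched on both strands together with TTCNNNGAA (a STAT motif). The Saa1 window is chr7:46742981-46743230 on the minus strand, the Saa2 window chr7:46751583-46751832 on the plus strand, and the Saa3 window chr7:46715677-46715926 on the minus strand.
Saa1: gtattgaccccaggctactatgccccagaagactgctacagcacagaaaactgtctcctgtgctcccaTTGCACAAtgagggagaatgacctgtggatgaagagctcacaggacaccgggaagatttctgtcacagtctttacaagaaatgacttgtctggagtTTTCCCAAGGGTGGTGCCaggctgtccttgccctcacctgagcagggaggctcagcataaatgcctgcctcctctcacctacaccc
Saa2: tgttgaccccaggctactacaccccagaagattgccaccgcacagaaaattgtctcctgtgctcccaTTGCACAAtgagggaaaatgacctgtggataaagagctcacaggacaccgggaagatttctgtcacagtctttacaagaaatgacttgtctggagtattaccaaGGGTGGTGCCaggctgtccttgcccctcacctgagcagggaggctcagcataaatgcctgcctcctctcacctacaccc
Saa3: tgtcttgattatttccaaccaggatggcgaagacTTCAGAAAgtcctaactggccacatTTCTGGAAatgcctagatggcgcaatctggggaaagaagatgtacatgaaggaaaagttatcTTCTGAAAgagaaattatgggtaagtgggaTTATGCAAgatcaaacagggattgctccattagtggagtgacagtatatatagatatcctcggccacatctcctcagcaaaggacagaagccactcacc
The Saa1 and Saa2 windows were alike at 238 of 251 aligned positions (94.8%), whereas the Saa3 window matched Saa1 at 50.2% and Saa2 at 50.6% of aligned positions. Saa1 and Saa2 share a C/EBP match that begins at -182 and -183 from the start, and Saa1 has a second at -86 that directly adjoins its NF-kB match at -78. Saa2 has an NF-kB match at -79, and Saa3 has 4 C/EBP matches, at -216, -191, -129 and -99, and no NF-kB match. No STAT match was found in the 3 windows, and none of the matches overlapped another. Among 32851 mouse promoter windows of the same length, 36.8% hold the C/EBP motif, 45.8% the NF-kB motif and 7.02% the STAT motif, and a match describes letters and no binding.

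None of the 10 genes passed the test between oleic acid and saline mice in any comparison of the treatments, nor over time in either treatment, with limma's moderated test and Benjamini-Hochberg adjustment over all features. The background was nearly as bare. Of 29440 features, 0% passed at 1 h, 0.0034% at 1.5 h, 0% at 3 h, 0.0034% at 4 h, 0.0238% at 18 h and 0.0136% at 24 h, 0.0034% for the mean over 1 to 4 h, 0.017% for the mean over 18 and 24 h, and 0% for the difference of these means. At an unadjusted p under 0.05, 4 of the 10 genes stood out at 1 h, 1 at 24 h and 0 in the other comparisons of single times and means, against 4.04% of all features at 1 h and 4.55% at 24 h. The call at 1 h turned on 1 setting. With array weights Saa1, Saa2, Orm1 and Orm2 passed as lower in oleic acid mice at 1 h (limma adjusted p between 0.0246 and 0.0306), and 477 of all features passed. Saline 1 h replicates 1, 2 and 3 had weights of 0.41, 2.28 and 0.49, largest for the mouse highest in these genes. Without saline 1 h replicates 1 and 2 the differences were 0.57 for Saa1, 0.62 for Saa2, 0.13 for Orm1 and -0.16 for Orm2. What set the genes apart from one another was how far mice of the same group differed.

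**Figure D1:**
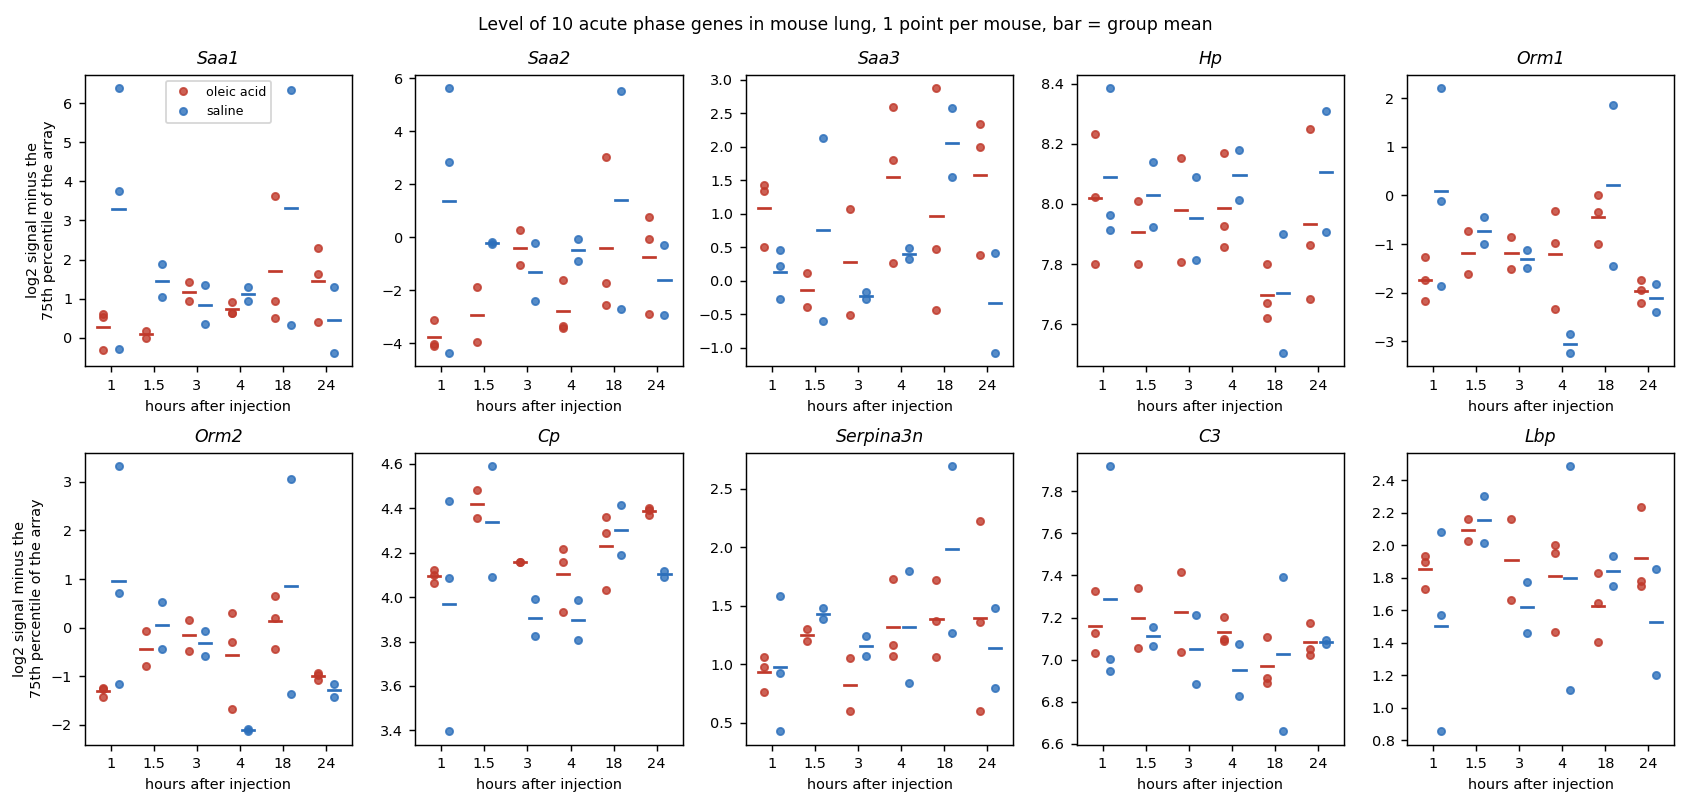
Level of each of the 10 genes (log2 signal minus the 75th percentile of the array, y axis) at 6 times after injection (x axis), 1 point per mouse, oleic acid left in red and saline right in blue, with bars at group means. The y scale differs between panels, and Saa1, Saa2, Orm1 and Orm2 have a few saline mice far above the rest at 1 and 18 h.

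Saa1 and Saa2 encode apolipoproteins that displace others from high density lipoprotein and are made mainly by hepatocytes in the acute phase. At 1 h Saa2 had levels of -4.09, -3.13 and -4.02 in oleic acid mice, against 2.86, 5.64 and -4.37 in saline mice. The log2 difference was -5.13 (95% interval -9.50 to -0.75, limma adjusted p = 1). Saline replicates 1 and 2 were high and saline replicate 3 lay below all 3 oleic acid mice, so the groups overlapped. Without saline replicates 1 and 2 the difference was 0.62, the opposite direction. Saa1 had levels of 0.54, 0.62 and -0.30 in oleic acid mice at 1 h, against 3.74, 6.39 and -0.28 in saline mice, a log2 difference of -3.00 (-5.81 to -0.19, limma adjusted p = 1). Without the same 2 saline mice it was 0.57. The same 2 saline mice were thus the high ones for both genes.

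Between 1.5 and 4 h no mouse reached the levels of the high saline mice at 1 h. At 1.5 h Saa2 had levels of -3.96 and -1.88 in oleic acid mice, against -0.26 and -0.16 in saline mice. At 4 h it had levels of -3.41, -1.61 and -3.36 in oleic acid mice, against -0.88 and -0.07 in saline mice. All oleic acid mice were below all saline mice at both times, for Saa1 as well, and at 3 h the groups overlapped for both genes. At 1.5 h 3 of the 10 genes did not overlap between treatments, where 26% of all features did not, and at 4 h 5 of 10 did not, where 22.5% of all features did not. The log2 differences of Saa2 were -2.71 (-8.07 to 2.65) at 1.5 h, 0.91 (-4.45 to 6.27) at 3 h and -2.32 (-7.21 to 2.58) at 4 h, with adjusted p-values of 1, 0.987 and 0.825 in limma. Over the mean of 1 to 4 h Saa2 differed by -2.31 (-4.82 to 0.20, limma adjusted p = 0.66) and Saa1 by -1.11 (-2.72 to 0.50, limma adjusted p = 0.713). Without saline 1 h replicates 1 and 2 these means were -0.87 for Saa2 and -0.21 for Saa1.

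At 18 h a single mouse of each treatment was high in Saa1 and Saa2. Saa2 had levels of 3.01, -1.73 and -2.54 in oleic acid mice, against 5.52 and -2.72 in saline mice. Saa1 had levels of 3.64, 0.51 and 0.94 in oleic acid mice, against 6.34 and 0.32 in saline mice. Replicate 1 of each treatment was the high mouse for both genes. At 24 h Saa2 had levels of -0.08, -2.90 and 0.75 in oleic acid mice, against -0.30 and -2.95 in saline mice. Saa1 then had levels of 1.63, 0.40 and 2.29 in oleic acid mice, against 1.30 and -0.39 in saline mice, and the groups overlapped for both genes. At 18 h the oleic acid arrays and the saline arrays lay on different slides, so treatment and slide cannot be told apart at that time.

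Saa3 encodes a serum amyloid A that macrophages, fat cells and epithelial cells make outside the liver. At 1 h it had levels of 1.42, 1.34 and 0.51 in oleic acid mice, against 0.22, 0.46 and -0.27 in saline mice. All oleic acid mice were above all saline mice, and Saa3 and Orm2 were the 2 genes of the 10 without overlap at 1 h, where 4.54% of all features had none. The log2 difference was 0.95 (-0.73 to 2.64, limma adjusted p = 1), and 1.36 (-1.16 to 3.89) without saline replicates 1 and 2. At 1.5 h Saa3 had levels of 0.11 and -0.39 in oleic acid mice, against 2.12 and -0.61 in saline mice, and at 3 h 1.08 and -0.51 in oleic acid mice, against -0.17 and -0.27 in saline mice. At 4 h the levels were 1.80, 0.26 and 2.58 in oleic acid mice, against 0.48 and 0.33 in saline mice. The groups overlapped at each of these times.

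Late Saa3 levels differed as much within groups as between them. At 18 h they were 0.47, -0.43 and 2.88 in oleic acid mice, against 2.57 and 1.54 in saline mice. At 24 h they were 1.99, 0.39 and 2.33 in oleic acid mice, against 0.41 and -1.08 in saline mice. Saline replicate 1 lay just above oleic acid replicate 2. The log2 difference at 24 h was 1.90 (0.02 to 3.79, limma adjusted p = 0.86), and leaving out saline 24 h replicate 1 or 2 gave 2.65 and 1.16. These were the highest and lowest values when each of the 29 arrays was left out in turn. Oleic acid 24 h replicate 3, the highest of these mice at 2.33, also stood apart in its Dbp level, given in the closing section. At 18 h the difference was -1.09 (-2.97 to 0.80, limma adjusted p = 1).

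Orm1 and Orm2 encode alpha-1-acid glycoproteins, plasma carriers of basic and lipophilic molecules that hepatocytes secrete. At 1 h Orm2 had levels of -1.42, -1.25 and -1.26 in oleic acid mice, against 0.71, 3.32 and -1.16 in saline mice, a log2 difference of -2.27 (-4.18 to -0.36, limma adjusted p = 1). Orm1 had levels of -2.18, -1.27 and -1.75 in oleic acid mice, against -0.11, 2.22 and -1.86 in saline mice, a difference of -1.81 (-3.48 to -0.14, limma adjusted p = 1). Saline replicates 1 and 2 were again the high mice, and saline replicate 3 lay within the oleic acid mice for Orm1 and just above them for Orm2. Without these 2 saline mice the differences were -0.16 for Orm2 and 0.13 for Orm1. The mean of the liver markers on the 1 h arrays was 0.74, 0.66 and 0.96 in oleic acid mice, against 2.92, 5.20 and 0.51 in saline mice, so it was highest in the same 2 saline mice. With that mean as a covariate of each array, a setting chosen after seeing the data, the 1 h differences were -0.44 (-1.41 to 0.53) for Orm2, -0.24 (-1.14 to 0.65) for Orm1, -1.61 (-4.94 to 1.71) for Saa2 and -0.69 (-2.76 to 1.38) for Saa1. None of the 10 genes passed in any of the 14 comparisons with it.

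At 1.5 h Orm1 stood at -1.61 and -0.74 in oleic acid mice, against -0.45 and -0.998 in saline mice, and at 3 h at -0.86 and -1.51 in oleic acid mice, against -1.49 and -1.12 in saline mice. Orm2 stood at -0.79 and -0.07 in oleic acid mice at 1.5 h, against 0.52 and -0.44 in saline mice, and at 0.17 and -0.48 in oleic acid mice at 3 h, against -0.58 and -0.06 in saline mice. The treatments overlapped for both genes at both times.

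At 4 h both orosomucoids ran the other way. Orm1 had levels of -2.34, -0.97 and -0.32 in oleic acid mice, against -2.86 and -3.24 in saline mice, a log2 difference of 1.84 (-0.03 to 3.71, limma adjusted p = 0.672). Orm2 had levels of -1.67, -0.30 and 0.29 in oleic acid mice, against -2.08 and -2.13 in saline mice, a difference of 1.55 (-0.59 to 3.69, limma adjusted p = 0.715). All oleic acid mice were above both saline mice. The liver marker mean ran the same way, at 0.33, 1.46 and 0.96 in oleic acid mice, against 0.06 and -1.10 in saline mice. With it as a covariate the 4 h differences were 0.76 (-0.18 to 1.70) for Orm1 and 0.29 (-0.72 to 1.30) for Orm2. At 1.5 and 18 h the covariate moved them away from 0. At 1.5 h Orm1 went from -0.45 to -1.06 (-2.06 to -0.07) and Orm2 from -0.47 to -1.19 (-2.25 to -0.12). At 18 h Orm1 went from -0.65 to -1.03 (-1.92 to -0.13) and Orm2 from -0.72 to -1.16 (-2.13 to -0.19). These intervals are before adjustment, and neither gene passed. At 3 and 24 h the intervals held 0. For the amyloids the covariate moved the 4 h differences away from 0, to -4.73 (-8.19 to -1.26, limma adjusted p = 0.251) for Saa2 and -1.97 (-4.13 to 0.18, adjusted p = 0.394) for Saa1. With it the mean over 1 to 4 h was -2.70 (-4.40 to -0.99, limma adjusted p = 0.385) for Saa2 and -1.36 (-2.42 to -0.30, adjusted p = 0.385) for Saa1. This fit takes 1 slope per gene for all 29 arrays, and for the amyloids the relation to the liver mean rested on a few arrays. Without the 2 arrays farthest from the median liver level, r fell from 0.60 to 0.30 for Saa2 and from 0.64 to 0.29 for Saa1. The covariate was not fitted without those arrays, nor without Fga, Fgb, Fgg and Hpx, which are acute phase genes in the liver list. The mean of the fat cell markers was also higher in oleic acid mice at 4 h (95% interval of the log2 difference 0.34 to 2.66), and its part was not tested. At 18 h Orm1 stood at 0.01, -0.33 and -1.01 in oleic acid mice, against 1.85 and -1.44 in saline mice, and at 24 h at -1.74, -2.21 and -1.96 in oleic acid mice, against -2.39 and -1.82 in saline mice. Saline replicate 1 was the high mouse at 18 h, as for Saa1 and Saa2. At 18 h Orm2 stood at 0.64, 0.19 and -0.44 in oleic acid mice, against 3.06 and -1.37 in saline mice. At 24 h it stood at -0.94, -0.98 and -1.08 in oleic acid mice, against -1.43 and -1.16 in saline mice. The 24 h groups did not overlap for Orm2 and Cp, 2 of the 10 genes, where 21.3% of all features did not overlap, and no gene of the 10 was free of overlap at 18 h, where 11.9% were.

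Hp encodes haptoglobin, which binds free haemoglobin and which neutrophils and lung epithelial cells hold as well as the liver. Its levels lay between 7.62 and 8.25 in oleic acid mice (median 7.86) and between 7.50 and 8.39 in saline mice (median 7.96). The treatments overlapped at every time. The differences lay between -0.17 at 24 h (-0.60 to 0.25) and 0.03 at 3 h (-0.44 to 0.49), so intervals at single times reached no further than 0.60 on the log2 scale. Group means ran from 7.70 ± 0.09 at 18 h to 8.02 ± 0.22 at 1 h in oleic acid mice (SD, n = 3 each).

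C3 encodes the central component of complement, on which all its activation routes converge. Its levels lay between 6.89 and 7.42 in oleic acid mice (median 7.09) and between 6.66 and 7.92 in saline mice (median 7.07), the highest of them saline 1 h replicate 2. At 4 h it stood at 7.20, 7.09 and 7.10 in oleic acid mice, against 7.07 and 6.83 in saline mice, without overlap, a log2 difference of 0.18 (-0.32 to 0.68, limma adjusted p = 0.885). The C3 probe has 10 spots on each array, whose SD was 0.036 in the median array, so spots of 1 array differed far less than mice did (0.26). Another C3 probe of 1 spot followed it over the 29 arrays (r = 0.85).

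Lbp encodes the plasma protein that hands lipopolysaccharide to CD14. Its levels lay between 1.41 and 2.24 in oleic acid mice (median 1.86) and between 0.86 and 2.49 in saline mice (median 1.77). The groups overlapped at every time, and the widest differences were 0.39 at 24 h (-0.34 to 1.12) and 0.35 at 1 h (-0.30 to 1.00), with limma adjusted p-values of 0.86 and 1. Without saline 1 h replicates 1 and 2 the 1 h difference of Lbp was -0.23 (-1.06 to 0.61), the opposite direction.

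Cp encodes ceruloplasmin, a ferroxidase that carries copper in plasma. At 24 h it had levels of 4.40, 4.39 and 4.37 in oleic acid mice, against 4.12 and 4.09 in saline mice. The mice of each treatment differed by less than 0.05 there, and the groups did not overlap, yet the log2 difference of 0.28 (-0.16 to 0.73) had a limma adjusted p of 0.86, since the test takes its spread from all 12 groups. At 3 h it had levels of 4.16 and 4.16 in oleic acid mice, against 3.99 and 3.83 in saline mice, again without overlap, a difference of 0.25 (-0.23 to 0.74, limma adjusted p = 0.92). Over all times it lay between 3.93 and 4.48 in oleic acid mice and between 3.40 and 4.59 in saline mice.

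Serpina3n encodes an inhibitor of granzyme B and of neutrophil proteases in the mouse. It had levels of 1.19 and 1.30 in oleic acid mice at 1.5 h, against 1.48 and 1.38 in saline mice, and 1.05 and 0.60 in oleic acid mice at 3 h, against 1.07 and 1.24 in saline mice. All oleic acid mice were below all saline mice at both times. At 3 h Serpina3n and Cp were the 2 genes of the 10 without overlap, where 35.4% of all features had none. At the other times the treatments overlapped, and the 6 differences lay between -0.60 at 18 h (-1.53 to 0.33) and 0.26 at 24 h (-0.67 to 1.19).

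**Figure D2:**
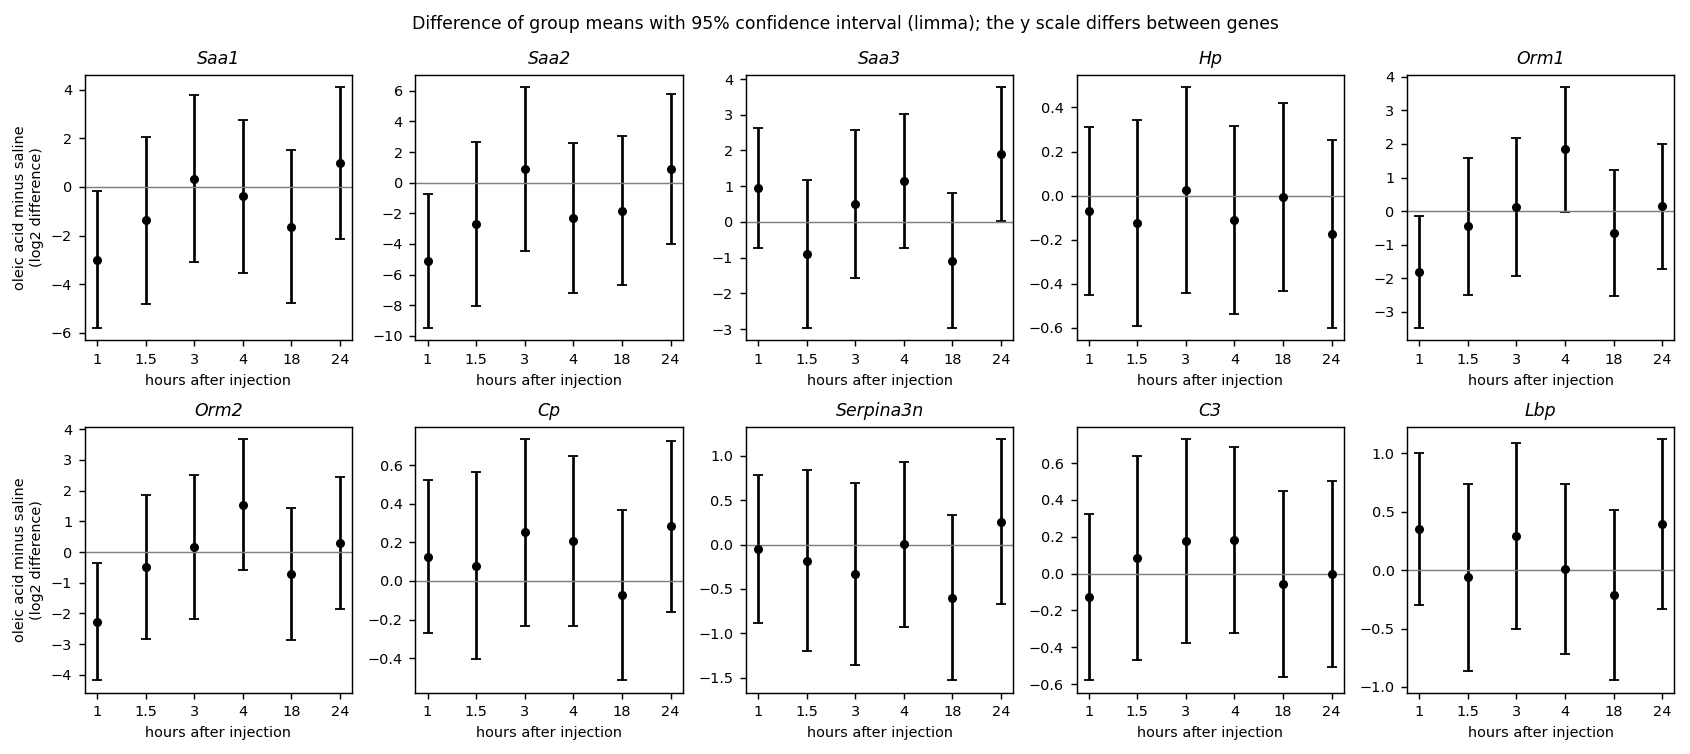
Log2 difference, oleic acid minus saline (y axis), with its 95% interval from limma, at 6 times (x axis) for each of the 10 genes. The y scale differs between panels. The intervals exclude 0 for Saa1, Saa2, Orm1 and Orm2 at 1 h and for Saa3 at 24 h, before any adjustment, and those of Hp, Cp and C3 stay within 1 unit.

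The median log2 difference over the 10 genes, beside that over all features, was -0.10 and 0.04 at 1 h, -0.32 and -0.03 at 1.5 h, 0.21 and -0.01 at 3 h, 0.10 and -0.08 at 4 h, -0.62 and -0.03 at 18 h, and 0.29 and -0.12 at 24 h. At 18 h all 10 differences were below 0, and at 24 h 9 of 10 were above 0. The shares of all features on either side of 0 were not computed. Several of the 10 genes moved together between mice, so these signs are not separate results. At 18 h the differences of Hp, C3 and Cp were -0.0048, -0.06 and -0.07. The single high mouse, saline 18 h replicate 1, entered those of Saa1, Saa2, Orm1 and Orm2. Of 10 intervals, 10 held 0 at each of 1.5, 3, 4 and 18 h, 6 at 1 h and 9 at 24 h. Without saline 1 h replicates 1 and 2 the 1 h differences were 0.05 (-0.48 to 0.59) for Hp, 0.01 (-0.39 to 0.41) for Cp, 0.0039 (-1.15 to 1.16) for Serpina3n and 0.21 (-0.29 to 0.72) for C3, against -0.07, 0.13, -0.05 and -0.13 with them.

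More features passed between times than between treatments. The means of 18 and 24 h against those of 1 to 4 h passed for 5% of features in oleic acid mice and for 2.77% in saline mice, and for 0 of the 10 genes in each, a count near these shares. In F tests over the 6 times, 4.41% of features passed in oleic acid mice and 4.28% in saline mice, again with 0 of the 10. The smallest p of the 10 was that of Orm1 in saline mice (limma adjusted p = 0.131), which was lowest at 4 h. Array weights, or leaving out saline 1 h replicate 3, gave 1 passing gene of the 10 in saline mice over time, and leaving out saline 18 h replicate 2 gave 2. For the treatment at any time 0.017% of features passed and 0 of the 10, with Orm1 at the smallest p (limma adjusted p = 1). Between late and early oleic acid mice the widest difference was that of Saa2, at 1.88 (-0.91 to 4.67, limma adjusted p = 0.493). The saline 18 h arrays shared a slide with the 4 h mice and oleic acid 3 h replicate 3, and the other late arrays lay on a slide with no early ones, so time and slide cannot be told apart for most arrays.

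The spread between mice of 1 group separated the 10 genes. Pooled over the 12 groups, Saa2 had an SD of 2.71 log2 units between mice of the same treatment and time, the 25th highest of 29440 features, and Saa1 had 1.74 (percentile 98.2). Orm2 followed at 1.18 (percentile 93.9), Saa3 at 1.04 (91.8) and Orm1 at 1.03 (91.6). Serpina3n had 0.51, Lbp 0.39, C3 0.26, Cp 0.22 and Hp 0.21, against a median of 0.34 over all features, so 7 of the 10 were above that median and 3 below it. From the lowest to the highest of 29 mice Saa2 covered 10.01 log2 units (1031-fold), Saa1 6.78 (110-fold) and Orm2 5.46 (44.0-fold), while Hp covered 0.88 (1.84-fold). With the 2 arrays left out put back, the SD was 0.61 for Hp, 0.66 for Cp and 0.67 for C3, so their low spread holds for the 29 arrays.

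In oleic acid mice the SD was 1.76 for Saa2, 0.91 for Saa1, 0.56 for Orm2 and 0.61 for Orm1, against 3.66, 2.48, 1.71 and 1.43 in saline mice. Saa3 had 1.13 in oleic acid mice and 0.90 in saline mice. These differences in spread were not tested. In saline mice Saa2 had the 2nd highest SD of all features, and most of it came from the high mice at 1 and 18 h.

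**Figure D3:**
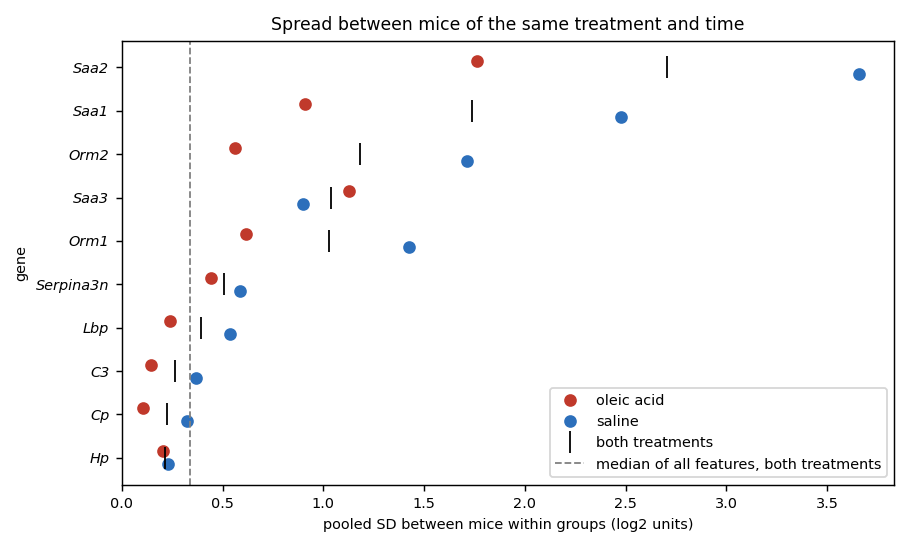
Pooled SD between mice of the same treatment and time (x axis, log2 units) for each gene (y axis), with oleic acid in red above, saline in blue below it and both treatments as a black tick. The dashed line is the median of all features (0.34), and Saa2, Saa1, Orm2 and Orm1 lie farther right in saline mice than in oleic acid mice.

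The genes fell into a few patterns over the 29 mice. Saa1 followed Saa2 (r = 0.94) and Orm1 followed Orm2 (r = 0.97), as a description over arrays of different mice that share slides. Saa1 also followed Orm2 (r = 0.80), and C3 followed Orm2 (r = 0.61), whereas Saa3 followed none of them closely (r = 0.28 with Saa1, 0.08 with Saa2 and 0.13 with Orm2). Outside the 10, the likest genes to Orm2 over the 29 arrays were Serpina3m (r = 0.92) and Ugt2b38 (r = 0.91), and the likest to Saa2 were Itih3 (r = 0.78) and Gm4952 (r = 0.77). The likest to Saa3 were Prg4 (r = 0.83), Fcna (r = 0.76) and Cxcl13 (r = 0.72), and the likest to C3 was Apoe (r = 0.85). Hp was likest to H2ac10 (r = 0.87), Lbp to Atg16l1 (r = 0.88), Cp to Ppa1 (r = 0.74) and Serpina3n to Krtap11-1 (r = 0.78).

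The 10 genes were set against the mean level of 8 marker lists on the same arrays, 80 relations in all, each with Pearson's r, Spearman's rho and 2-sided permutation p-values from 100000 resamples, adjusted over the 80. The resamples shuffled all 29 arrays freely, without keeping group or slide. These p-values thus treat arrays as interchangeable, though they share groups and slides, and do not measure the relation between mice of 1 group. Orm2 followed the liver markers (r = 0.89, permutation p = 1e-05, the smallest these resamples can give, adjusted p = 0.000267; rho = 0.84, adjusted p = 0.000267). Without the 2 arrays farthest from the median liver level its r was 0.83, and within slides 1 to 4 (7, 6, 8 and 8 arrays) it was 0.99, 0.64, 0.85 and 0.93. Orm1 did likewise (r = 0.87, rho = 0.79, both with an adjusted permutation p of 0.000267), with r = 0.78 without those 2 arrays and 0.98, 0.45, 0.80 and 0.98 within slides. For deviations from group means r was 0.90 for Orm2 and 0.89 for Orm1. These genes were grouped as proteins made in lung, and levels of Orm1 and Orm2 went with those of the liver list. That list includes Fga, Fgb, Fgg and Hpx, which are acute phase genes too. The relation is therefore in part one between acute phase genes. Where the RNA came from was not tested.

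Saa1, Saa2 and C3 had weaker relations to the liver markers that rested on a few arrays. Saa1 had r = 0.64 (adjusted permutation p = 0.00366) but rho = 0.32 (adjusted p = 0.293), and r = 0.29 without the 2 farthest arrays. Within slides its r was 0.98, -0.55, 0.70 and 0.25. Saa2 had r = 0.60 (adjusted permutation p = 0.0067), rho = 0.38 (adjusted p = 0.232), r = 0.30 without those 2 arrays, and 0.98, -0.39, 0.66 and 0.24 within slides. C3 had r = 0.65 (adjusted permutation p = 0.00304), rho = 0.40 (adjusted p = 0.214), r = 0.37 without those 2 arrays, and 0.76, 0.71, 0.82 and -0.51 within slides. For deviations from group means r was 0.77 for Saa1, 0.76 for Saa2 and 0.82 for C3, values not computed without those 2 arrays. Mice with alike liver levels could differ in Saa2. Oleic acid 18 h replicates 1 and 2 had liver means of 2.66 and 2.80, and Saa2 levels of 3.01 and -1.73.

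**Figure D4:**
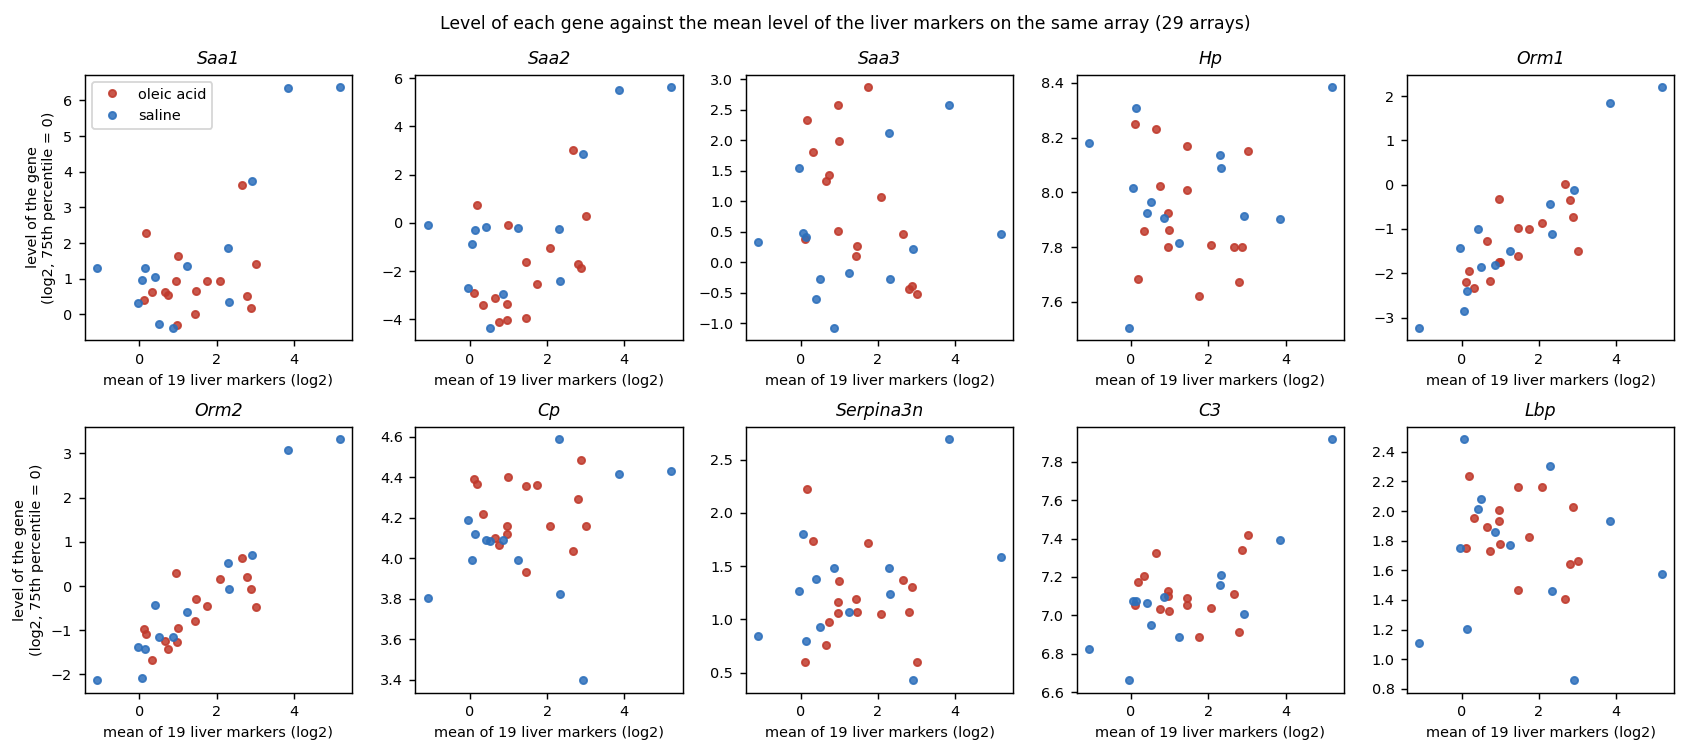
Level of each gene (y axis, log2) against the mean log2 level of 19 liver markers on the same array (x axis), 29 arrays, oleic acid in red and saline in blue. Orm1 and Orm2 are higher along the whole range of the liver mean, Saa1 and Saa2 are high on 4 arrays of 2.66 or more, and Saa3, Hp, Cp, Serpina3n and Lbp show no such trend.

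Hp followed other lists. It went with the neutrophil markers (r = 0.71, permutation p = 2e-05, adjusted p = 0.0004; rho = 0.74, adjusted p = 0.000267), with r = 0.66 without the 2 farthest arrays and 0.52, 0.27, 0.83 and 0.73 within slides. It went as well with the lung epithelium markers (r = 0.73, adjusted permutation p = 0.000267; rho = 0.70, adjusted p = 0.0008), with r = 0.68 without the 2 farthest arrays and 0.39, 0.67, 0.92 and 0.96 within slides. Serpina3n ran against the neutrophil markers (r = -0.62, adjusted permutation p = 0.00366; rho = -0.67, adjusted p = 0.0024), with r = -0.61 without the 2 farthest arrays and -0.18, -0.58, -0.72 and -0.87 within slides. The neutrophil list (15 of 16 measured, among them S100a8, S100a9, Retnlg and Csf3r) had a mean level between 0.93 and 2.48 in oleic acid mice and between 1.32 and 2.69 in saline mice. The part of cell numbers in these relations was not tested. Of the 80 relations 10 had an adjusted p under 0.05 by r and 5 by both r and rho. The others by r alone were Saa2 with club and goblet cell markers (r = -0.51, adjusted permutation p = 0.0371; rho = -0.48, adjusted p = 0.112; within slides -0.81, -0.77, 0.02 and -0.74) and Cp with mesothelium markers (r = 0.51, adjusted permutation p = 0.0371; rho = 0.30, adjusted p = 0.302; within slides 0.74, -0.25, 0.79 and 0.31), which had r = -0.36 and r = 0.25 without the 2 farthest arrays. By rho alone Cp passed with the clock genes (rho = -0.54, adjusted permutation p = 0.0416; r = -0.46, adjusted p = 0.07; r = -0.45 without the 2 farthest arrays, and -0.06, -0.83, -0.75 and 0.10 within slides). The clock list (14 of 15 measured) averages genes that peak at opposite times of day, such as Dbp and Npas2. Its mean thus does not measure the phase of the clock. For deviations from group means, r of Hp was 0.70 with neutrophils and 0.80 with lung epithelium, and r of Serpina3n with neutrophils was -0.60. It was -0.50 for Saa2 with club and goblet cells, 0.37 for Cp with mesothelium and -0.20 for Cp with the clock genes. The lists of fat cells and alveolar macrophages passed with none of the 10 genes. Saa3 passed with no list, and its r lay between -0.35 for neutrophils and 0.28 for fat cells.

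**Figure D5:**
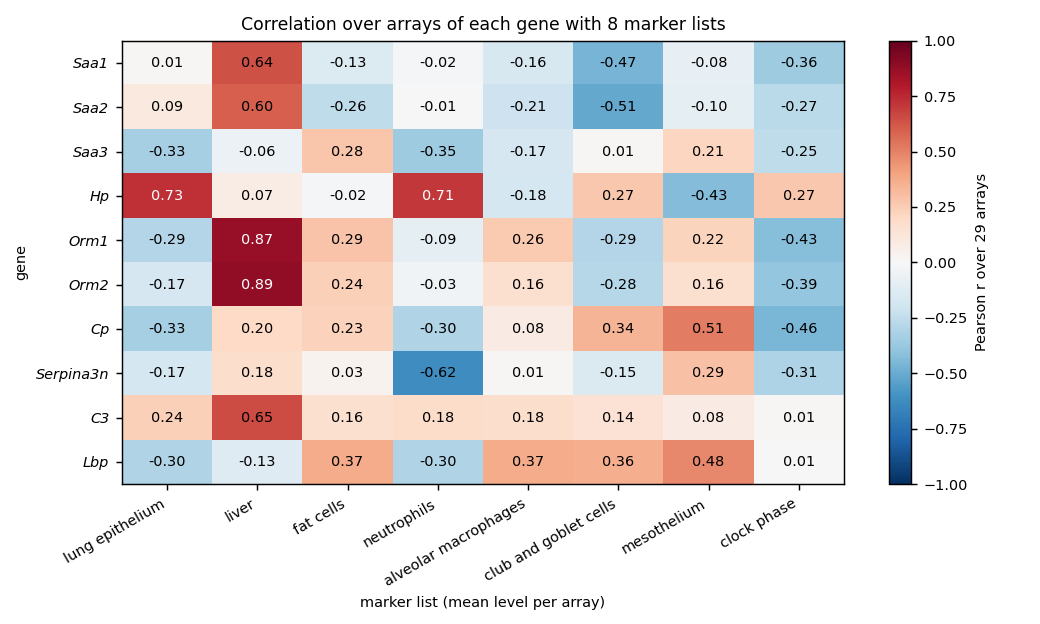
Pearson r over 29 arrays between the level of each of the 10 genes (rows) and the mean level of 8 marker lists (columns), with the value in each cell. The liver column is highest for Orm2 (0.89) and Orm1 (0.87), and Hp is high with lung epithelium (0.73) and neutrophils (0.71).

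Genes around the 10 were counted from 5 lists. Of 29 other acute phase genes 0 passed in any comparison of oleic acid with saline, as did 0 of 27 inducers and signalling genes, 0 of 22 receptors and partners of the proteins, 0 of 23 complement genes and 0 of 13 negative acute phase genes, with limma. Over time some passed. Nfkbia, the inhibitor that NF-kB induces, fell by 0.76 on the log2 scale (-1.14 to -0.37, limma adjusted p = 0.0215) between early and late oleic acid mice and fell by 1.1 (-1.55 to -0.65, adjusted p = 0.00898) between early and late saline mice. Cebpd, a C/EBP factor of the acute phase, fell by 1.09 in late saline mice (-1.59 to -0.60, limma adjusted p = 0.0181). F3, which encodes tissue factor, fell by 0.70 in late oleic acid mice (-1.02 to -0.37, limma adjusted p = 0.0131) and by 0.75 in late saline mice (-1.13 to -0.37, adjusted p = 0.0307). The complement receptor gene Cr2 rose by 0.76 in late oleic acid mice (0.44 to 1.09, limma adjusted p = 0.00793) and by 0.78 in late saline mice (0.41 to 1.16, adjusted p = 0.0244). Late against early mice, the list of inducers had 1 passing gene of 27 in oleic acid mice and 2 in saline mice. The receptor list had 1 of 22 in each, and the complement and negative lists had 0. Of all features 5% passed in oleic acid mice and 2.77% in saline mice. In F tests over the 6 times Stat3, Rela and Steap4 passed as well in saline mice (limma adjusted p = 0.0455, 0.0438 and 0.0382). Fpr1 and Cebpd passed in oleic acid mice (limma adjusted p = 0.0291 and 0.0448). In these F tests 4.28% of all features passed in saline mice and 4.41% in oleic acid mice. The part of slide and of the time of day was not tested.

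At 1 h the negative acute phase genes, such as Alb and Ttr, which the liver makes less of in the acute phase, had log2 differences above 0 for 0 of 13 (median -1.77), and the other acute phase genes for 4 of 29 (median -0.60). Without saline 1 h replicates 1 and 2, and so against saline replicate 3 alone, both lists turned. They went to 9 of 13 above 0 (median 0.20) and 21 of 29 above 0 (median 0.20). At 4 h they were above 0 for 11 of 13 (median 0.92) and for 24 of 29 (median 0.48). None of them passed. Liver markers stood beside both lists, with a log2 difference of their mean of -2.09 (-4.06 to -0.12) at 1 h, which was 0.28 (-1.96 to 2.52) without those 2 mice, and 1.43 (-0.77 to 3.64) at 4 h. The liver list shares Alb, Ttr, Apoa1, Apoa2 and Ahsg with the negative list. It shares Fga, Fgb, Fgg and Hpx with the other acute phase list. Their likeness is thus in part fixed by shared genes. At 1 h Alb itself stood at 3.44, 3.10 and 3.68 in oleic acid mice, against 5.17, 7.39 and 2.97 in saline mice.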

How the data were processed

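From each of 31 lungs 200 ng of RNA went onto a 1-colour Agilent array as Cy3-labelled cRNA. The authors read them with Feature Extraction 10.5.1.1, and per the file headers each spot has an intensity (a processed signal, corrected for background) and flags scored 0 or 1. The authors also deposited a table of log2 values, whose background treatment is not given in the sources used here. Here log2 of the processed signal minus the 75th percentile of the array was used (R 4.3.3). Spots flagged as outliers were left out. Probes were kept if well above background on every array of 1 group or more, and the kept probe with the highest mean stood for a gene. limma 3.58.1 (statmod 1.5.0) was fitted to 12 group means on 29 arrays, with Benjamini-Hochberg adjustment over 29440 features (29439 where 1 feature lacked a group) and a threshold of 0.05. Single arrays are mice, and p-values measure the spread between them. Missing values (466) were left out of the fit.

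The 10 genes and the lists were chosen with earlier results of these data known. All 10 genes are named, and from each pathway list the named genes are those that passed in a comparison or have the smallest F test p. A result of 1 list gene is not reported here. The likest genes are those with the highest r. The marker lists named are of liver, neutrophils, lung epithelium, fat cells, alveolar macrophages, club and goblet cells, mesothelium and clock genes. The fit was tested on simulated data. Alternatives were the authors' deposited log2 values, normexp (offset 50), quantile and median scaling, another filter or choice of probe, kept outlier spots, slide, replicate number, array weights, all 31 arrays and leaving out each array. Probe names came from accessions (26582) or file symbols (2602). Hp and C3 saturated only on an array left out. Permutations were run in Python 3.11.15 (scipy 1.17.1). Each array's number of outlier spots and slide came from the files, and comparisons that slide could not be fitted in are named in the closing section.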

Additional observations from a re-analysis of the deposited data

Results flagged for a closer look

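Orm2 stood apart because every oleic acid mouse lay below every saline mouse at 1 h and above every saline mouse at 4 and 24 h. Its log2 difference, oleic acid minus saline, was -2.27 at 1 h, 1.55 at 4 h and 0.30 at 24 h. A test of the 4 h difference minus the 1 h difference, added after seeing the data, gave 3.82 (95% interval 0.95 to 6.69, limma adjusted p = 1 over 29440 features, of which 0 passed). Orm1 shifted alike, by 3.65 (1.15 to 6.16, limma adjusted p = 1), though its groups overlapped at 1 and 24 h. The 1 h difference rested on saline 1 h replicates 1 and 2. Without them, against saline replicate 3 alone, it was -0.16. The difference between 24 h and 1 h was not tested. The groups do not overlap for 4.54% of all features at 1 h, 22.5% at 4 h and 21.3% at 24 h.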

How the results depend on the processing

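Over 47 settings, 29 of which leave out 1 array, 650 counts of the 10 genes were computed in 14 comparisons, and all but 4 of them were 0. Array weights gave 4 at 1 h (Saa1, Saa2, Orm1 and Orm2) and 1 for saline mice over time. Leaving out 1 array gave counts between 0 and 2 for saline mice over time (1 without saline 1 h replicate 3, 2 without saline 18 h replicate 2) and 0 in the other 13 comparisons. Without both saline 1 h arrays with a low Dbp level, the 1 h differences turned to 0.57 for Saa1, 0.62 for Saa2 and 0.13 for Orm1. The counts over all features moved by more than 1.5 times in many settings. For late against early mice, counts lay between 68 and 3106 in oleic acid mice, where 1471 passed, and between 39 and 1140 in saline mice, where 815 passed. Over the 6 times they lay between 63 and 5843 in oleic acid mice (1299) and between 22 and 2835 in saline mice (1259). With array weights 477 passed at 1 h, where 0 did. Among the other comparisons of treatments the highest counts were 143 at 1.5 h, 145 at 3 h, 46 at 4 h, 350 at 18 h, 142 at 24 h, 36 and 278 for the early and late means, 162 for their difference and 251 at any time, with 0 as the lowest in each. With all 31 arrays the spread was 0.61 for Hp, 0.66 for Cp and 0.67 for C3. The replicate block gave 0 genes of the 10 in every comparison, 2 features at 24 h where 4 passed and 2 at any time where 5 passed, with no other count moved by over 1.5 times. Same-numbered mice deviated together by r between -0.77 and 0.63, over 0.1 in 7 of 12 pairs, so the numbers were not taken as pairs. Slide as a fixed term could be fitted for 1, 1.5, 3, 4 and 24 h and the early mean only. The cause of these changes was not tested. The number of arrays, 2 or 3 per group, limits all comparisons.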

Other observations

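The 2 arrays left out gave other levels for several of the genes. Oleic acid 3 h replicate 2 had levels of 4.89 for Hp, 3.95 for C3 and 0.80 for Cp, where the other 29 arrays lay at or above 7.50, 6.66 and 3.40. Oleic acid 1.5 h replicate 3 had 7.85 for Hp and 7.86 for C3, and its Saa1, Saa2 and Orm2 spots carried an outlier flag.

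Cp has another probe on the array. Its level lay between -2.04 and -0.79 (median -1.38) over the 29 arrays, and it followed the probe used only loosely (r = 0.29, and 0.05 for deviations from group means). Which transcripts of Cp either probe measures was not tested.

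Saline 1 h replicates 1 and 2 and saline 18 h replicate 1 were among the 4 highest of 29 mice for each of Saa1, Saa2, Orm1 and Orm2, and for the mean of the liver markers. Dbp, whose level follows the time of day, stood at 5.55 in oleic acid 24 h replicate 3, against 2.50 and 2.26 in the other oleic acid mice and 2.63 and 2.92 in the saline mice at 24 h. Saa2 was at 0.75 and Saa3 at 2.33 in that mouse, the highest of the 24 h mice for both genes.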
